A study of Fukomys damarensis and Heterocephalus glaber and Mus musculus with 160 samples.

Results

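Liver-only promoters are promoters that carried active chromatin marks in the liver of a rodent and, by the rule given here, none in its heart. They were chosen by measured peaks: in each of 4 species apart, a member was a liver region of acetylated histone H3 lysine 27 (H3K27ac) that overlapped a liver region of trimethylated histone H3 lysine 4 (H3K4me3) and no heart region of H3K27ac, H3K4me3 or monomethylated histone H3 lysine 4 (H3K4me1). A region stood for peaks found in at least 2 replicates, and an overlap counted when it covered 50% of the shorter region. The rule found 6888 members among 69677 liver promoters of the 4 species: 3599 of 23294 in naked mole-rats, 1466 of 18435 in Damaraland mole-rats, 765 of 13597 in guinea pigs and 1058 of 14351 on the 19 autosomes of the mouse. The other 62789 liver promoters also overlapped a heart region and are called shared promoters. Liver-only active enhancers, 97010 in all, had liver H3K27ac and H3K4me1, no liver H3K4me3 and no heart region, and served as the most alike set of distal elements.

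The data were peak lists from chromatin immunoprecipitation followed by sequencing (ChIP-seq), 1 list per library. Of 160 samples, 116 had a list and were used: 48 liver and 51 heart histone libraries, 16 liver libraries of transcription factors and 1 heart factor library. All animals were wild type. Naked mole-rats were males of 13 to 17 months, Damaraland mole-rats were 36 or 48 months old by estimate and male except the female DMR6, guinea pigs were males of 2.3 months and mice were C57BL/6J males of 2 months. Liver and heart were sampled as whole tissue, so fewer cells with a mark and less of the mark per cell cannot be told apart. One mouse heart sample was named for 3 animals. It gave 1 library of each of the 3 marks and counted as 1 replicate in each. Species differed in age, build and animals, so numbers of regions were not compared between them with a test.

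Nucleosomes at the start of an active gene carry H3K4me3 and, where the gene is in use, H3K27ac, while H3K4me1 marks enhancers and the flanks of promoters. Many genes are read in every tissue, and their promoters are marked everywhere. Genes of one organ more often depend on enhancers around them and on factors made there. In the liver these include CEBPA, a leucine zipper factor of hepatocyte metabolism, FOXA1, a forkhead factor that opens closed chromatin, HNF4A, a nuclear receptor that keeps the hepatocyte state, HNF6, a homeodomain factor of liver and bile duct development, and RXRA, the shared partner of many lipid-sensing nuclear receptors.

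The tissue labels were checked with H3K27ac and H3K4me3 regions found in 1 tissue only, each time defined without the library under test. Of 66 such lists 64 could be checked this way, and in 63 of the 64 the share of regions recovered was higher for the labelled tissue than for the other. The exception was the library labelled mouse heart H3K4me3 of animal 6837. It had a peak at 70.9% of the regions found in liver only and at 41.7% of those found in heart only, whereas the other 5 mouse heart H3K4me3 libraries had peaks at 0.257% to 24.6% of the former and 26.2% to 92.2% of the latter. The H3K27ac library of the same heart had peaks at 2.40% of the liver-only and 51.9% of the heart-only regions. Animal 6837 was left in, because a heart region needed 2 libraries. Without its H3K4me3 list the mouse had 1096 liver-only promoters in place of 1058. The 2 lists left were liver H3K4me3 of DMR1 and DMR4, which alone define that mark for the Damaraland members. Set against the peaks of the other, DMR1 had peaks at 40.4% of regions found in liver only and 5.67% of those in heart only, and DMR4 at 49.1% and 26.9%, a comparison added after seeing the data.

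Absence from heart meant that no heart region was called from at least 2 libraries, not that single heart libraries had no peak there. In naked mole-rats 2280 members (63.4%) had no peak in any of 10 heart libraries, in Damaraland mole-rats 935 (63.8%) had none in 15, and in guinea pigs 601 (78.6%) had none in 9. In the mouse 213 members (20.1%) had none in 17 libraries. There the library labelled heart H3K4me3 of 6837 alone had a peak at 765 members (72.3%), and 786 promoters had no peak in any heart library once it was left out. Over the other 16 mouse heart libraries the share of members with a peak was at most 12.7%, in the H3K4me1 list of animal 33017, which carries the tag 40M, as does the heart H3K4me1 list of DMR1. In the other 3 species no single heart library had a peak at more than 12.1% of members.

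**Figure D1:**
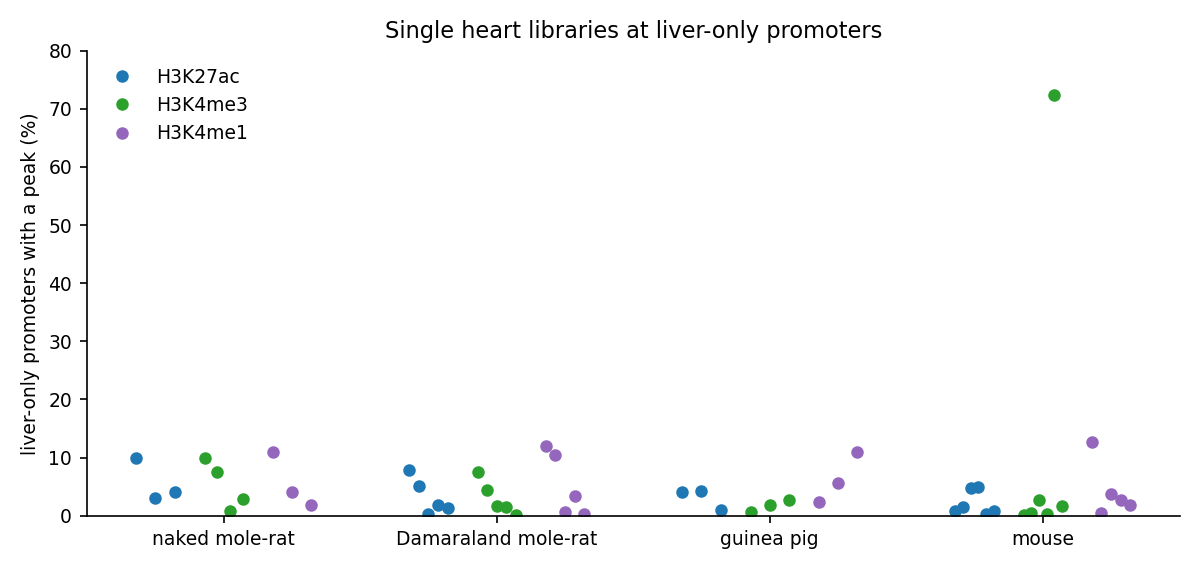
Share of liver-only promoters (vertical axis, percent) with a peak in each single heart library, by species and mark; each point is 1 library. All libraries lie at 12.7% or lower except the mouse H3K4me3 library of animal 6837, at 72.3%.

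Members made up 15.5% of the liver promoters of the naked mole-rat (95% Wilson interval 15.0 to 15.9), 7.95% in Damaraland mole-rats (7.57 to 8.35), 5.63% in guinea pigs (5.25 to 6.03) and 7.37% in the mouse (6.96 to 7.81). These intervals cover counting error only. Some members lay at the edge of a promoter that heart also used. A shared promoter lay within 2 kb of 704 members (19.6%) in naked mole-rats, 247 (16.8%) in Damaraland mole-rats, 52 (6.80%) in guinea pigs and 119 (11.2%) in the mouse. The H3K4me3 region under the member was itself found in heart for 244, 66, 6 and 30 members in the same order. This left 2874 (79.9%), 1216 (82.9%), 711 (92.9%) and 936 (88.5%) members apart from any shared promoter. Few members came close to the overlap limit: a largest heart overlap of 40% to under 50% was seen for 36, 9, 3 and 15 members, and 57, 22, 7 and 17 promoters lay just outside it with 50% to under 60%. In naked mole-rats the median H3K27ac width was 653.5 bases just inside and 796 bases just outside the limit, and in the mouse it was 1789 and 1469 bases.

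Because H3K27ac and H3K4me3 chose the members, their width and fold are described with no test. Liver-only promoters had wide acetylated regions and, next to shared promoters, H3K4me3 regions that were shorter in 3 species and slightly longer in guinea pigs. The median H3K27ac region was 1070 bases in naked mole-rats, 2468.5 in Damaraland mole-rats, 4165 in guinea pigs and 2499.5 in the mouse, against 983, 1229, 1988 and 1520 bases at shared promoters and 604, 713, 1086 and 926 bases at liver-only active enhancers. The median H3K4me3 region was 703, 1097, 1350 and 1066.5 bases at members and 1238, 1148, 1277 and 1748 bases at shared promoters. The naked mole-rat members were thus the narrowest of the 4 species, and 25% of them were under 490.5 bases of H3K27ac. In guinea pigs 67.2% of members were 3 kb or wider, compared with 27.7% of shared promoters. The widest member covered 28228 bases in guinea pigs and 29655 bases in the mouse.

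**Figure D2:**
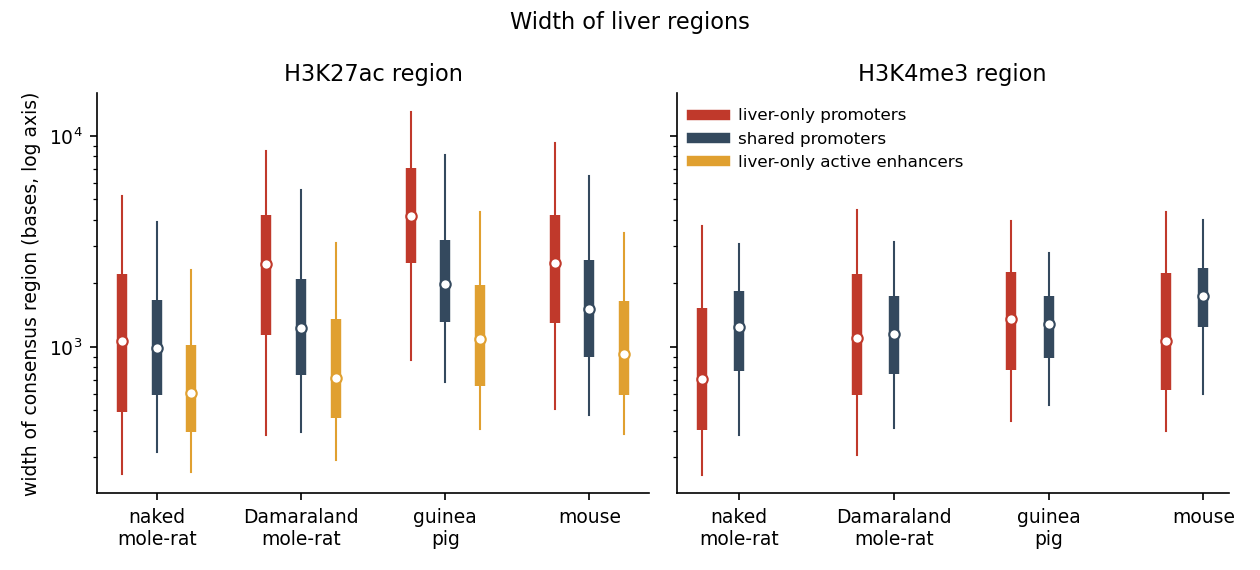
Width of consensus regions (vertical log axis, bases) of H3K27ac and H3K4me3 in each species. Points are medians, thick bars the middle 50% and thin lines the 5th to 95th percentile. H3K27ac at liver-only promoters has a median of 4165 bases in guinea pigs and 1070 bases in naked mole-rats, while H3K4me3 medians at members are 703 to 1350 bases.

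Widths were also taken library by library. Median H3K27ac peak width at naked mole-rat members was 831 bases in NMR30, 996 in NMR31, 736 in NMR32, 645 in NMR34 and 715 in NMR35, against 643 to 771 bases at shared promoters, so the ranges overlapped. In Damaraland mole-rats it was 1626 bases in DMR1, 2181.5 in DMR2, 1498 in DMR3, 1578.5 in DMR4 and 1638 in DMR6, all above the 720 to 1138 bases at shared promoters. Guinea pig libraries gave 3092 to 3356.5 bases at members and 1602 to 1726 at shared promoters. Mouse libraries gave 1814 to 2009 and 1145 to 1305 bases. In the last 3 species no library's value at members reached into the range of shared promoters.

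The fold enrichment of a peak is the authors' peak caller's ratio over background, and its scale can differ between lists. Folds are averaged over libraries as a description, without a test between lists. Median H3K27ac fold at members was 11.4 ± 1.01 in naked mole-rats (SD, n = 5) and 14.0 ± 1.93 at their shared promoters. It was 20.1 ± 1.12 and 14.7 ± 0.93 in Damaraland mole-rats (n = 5), 20.6 ± 1.68 and 20.9 ± 2.27 in guinea pigs (n = 3), and 19.7 ± 0.47 and 15.8 ± 1.26 in the mouse (n = 4). Ranked among all promoter peaks of their library, the members' median H3K27ac percentile was 36.9 to 49.4 in naked mole-rats and 62.9 to 68.3 in Damaraland mole-rats. It was 44.6 to 54.6 in guinea pigs and 55.3 to 64.2 in the mouse. H3K4me3 ranked low in all 4 species: the median percentile was 19.5 to 24.4, 24.5 to 25.6, 27.7 to 30.7 and 15.8 to 16.5 over their libraries. In mouse liver the median H3K4me3 fold was 10.9 ± 0.368 at members and 54.7 ± 1.90 at shared promoters (n = 4). Naked mole-rat members were thus below the middle of their libraries' promoters in H3K27ac, with a lower median fold than shared promoters. Damaraland mole-rat and mouse members were above the middle in every library, and guinea pig members lay around it.

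H3K4me3 at members was also found less evenly across replicates than at shared promoters. A peak of H3K4me3 in every liver library was present at 40.01% of naked mole-rat members and 74.5% of shared promoters, at 77.3% and 91.9% in guinea pigs and at 65.1% and 92.5% in the mouse. In Damaraland mole-rats, with 2 H3K4me3 libraries, it was 96.2% and 98.8%. H3K27ac was present in every liver library at 64.5% of members and 78.2% of shared promoters in naked mole-rats. In the other 3 species the 2 sets were close, at 83.3% and 84.3% in Damaraland mole-rats, 97.4% and 98.1% in guinea pigs, and 89.98% and 89.75% in the mouse. The H3K4me3 list of NMR30 stood apart with 253457 peaks, where the other 4 held 27591 to 48726, and it had a peak at the smallest share of members (53.6%, others 74.0% to 91.5%). Leaving it out gave 3473 members.

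The members with the highest mean H3K27ac fold, among those with a peak in every liver library, are described next. Their strong marking follows from that choice. The first in naked mole-rats, on scaffold JH173672.1 at bases 2863247 to 2866727 (HetGla_1.0), had H3K27ac folds of 90.9 in NMR30, 31.7 in NMR31, 145 in NMR32, 85.9 in NMR34 and 94.6 in NMR35, a mean of 89.6 ± 40.1 (SD, n = 5). It had no peak in any heart library, a peak in 7 of 8 factor libraries and 8 active enhancers within 50 kb. NMR31 was the lowest of its animals. The first in Damaraland mole-rats lay on KN123095.1 at 6640130 to 6646899 (DMR_v1.0), with folds of 65.7 in DMR1, 75.9 in DMR2, 49.1 in DMR3, 66.3 in DMR4 and 79.4 in DMR6, a mean of 67.3 ± 11.8 (n = 5). A shared promoter lay 208 bases away, so this member is not apart from promoters used in heart.

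In guinea pigs the first lay on DS562877.1 at 9598096 to 9608756 (Cavpor3.0), a region of 10661 bases with folds of 79.0 in GuineaPig7, 61.8 in GuineaPig8 and 71.5 in GuineaPig9. In the mouse it lay on chromosome 7 at 120171955 to 120176588 (GRCm38), with folds of 63.3 in 85920, 87.0 in 85921, 77.3 in 85923 and 72.8 in 85924, a mean of 75.1 ± 9.84 (n = 4). This mouse region stood far from promoters used in heart, the nearest being 275307 bases away. A peak of 1 of 17 heart libraries fell on it. The other 12 regions named by fold, 3 per species, had mean H3K27ac folds from 60.4 to 88.7, and all 16 carried liver H3K4me1.

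The members with the most active enhancers were other regions than those with the highest fold. In naked mole-rats a pair on JH165689.1, at 164801 to 167693 and 177636 to 183584, had 29 and 28 consensus active enhancers within 50 kb, with mean H3K27ac folds of 20.9 ± 7.25 and 26.4 ± 12.2 (n = 5). In the mouse the highest numbers were 18 at chromosome 10, 89502965 to 89507899, and 17 at chromosome 1, 88101770 to 88110478. The Damaraland mole-rat had at most 24 and the guinea pig at most 15, a number that 4 members shared. The JH165689.1 members lie close enough to reach many of the same enhancers, so their counts are not independent.

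Members with stronger H3K27ac more often had H3K4me1 and a factor peak and were wider. Members were ranked by their mean H3K27ac percentile and split into 3 groups of about equal number, bottom, middle and top. Liver H3K4me1 was present at 47.1%, 64.9% and 84.5% of naked mole-rat members from bottom to top, 63.0%, 83.6% and 91.4% in Damaraland mole-rats, 67.5%, 91.4% and 96.9% in guinea pigs and 56.7%, 89.5% and 96.0% in the mouse. Median H3K27ac width rose with it, from 457 to 2692.5 bases in naked mole-rats and from 1027 to 4639 bases in the mouse. A peak of any liver factor was present at 27.2%, 60.7% and 92.3% of naked mole-rat members and at 54.8%, 94.7% and 98.2% of Damaraland mole-rat members. Fold, width and overlap come from the same peaks, and a wider region can hold more peaks, so these gradients are a description. The split was made for members only, so the gradients are not shown to be particular to members. Shared promoters of naked mole-rats also rose with width. From under 1 kb, through 1 to 3 kb, to 3 kb and wider, 51.3%, 66.0% and 93.9% had H3K4me1. Any factor was at 34.7%, 74.9% and 97.4% of them. In the mouse 54.1%, 5.68% and 0.567% of members from bottom to top had no peak in any heart library, with the library of 6837 counted. The bottom group of the naked mole-rat also had the most members within 2 kb of a shared promoter (30.2%, top group 12.1%).

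H3K4me1 in liver played no part in the rule. A liver H3K4me1 region overlapped 65.5% of members and 60.9% of shared promoters in naked mole-rats, 79.3% and 66.3% in Damaraland mole-rats, 85.2% and 73.8% in guinea pigs and 80.7% and 75.9% in the mouse. Over single libraries the difference, members minus shared promoters, was 6.40 ± 2.41 percentage points in naked mole-rats (SD, n = 5, higher in 5 of 5 animals) and 17.0 ± 1.77 in Damaraland mole-rats (n = 5, 5 of 5). It was 10.5 ± 2.48 in guinea pigs (n = 3, 3 of 3) and 6.83 ± 10.4 in the mouse (n = 4, 3 of 4). A two-sided exact sign-flip permutation test gave p = 0.0625 in both mole-rats and p = 0.25 in guinea pigs, the smallest these numbers of animals allow, and p = 0.25 in the mouse. After adjustment over the 4 tests by the Benjamini-Hochberg method these were 0.125, 0.125, 0.25 and 0.25. The mouse exception was animal 85924, with peaks at 73.4% of members and 81.7% of shared promoters, and its H3K4me1 list gave a median fold of 12.2 at members where the other 3 mice gave 6.64 to 6.86.

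The difference was not the same at every width. Among regions of 1 to 3 kb, H3K4me1 was at 79.0% of members and 66.0% of shared promoters in naked mole-rats, 81.4% and 67.1% in Damaraland mole-rats, 68.8% and 69.3% in guinea pigs and 81.0% and 74.0% in the mouse. Among regions under 1 kb it was at a smaller share of members than of shared promoters in every species, for example 44.4% and 65.3% in the mouse. At 3 kb and wider it was at 92.1% of members and 93.9% of shared promoters in naked mole-rats, 92.8% and 94.0% in Damaraland mole-rats, 95.1% and 93.2% in guinea pigs and 96.3% and 96.4% in the mouse. Members were thus above shared promoters in 3 of 4 species between 1 and 3 kb, and only in guinea pigs at 3 kb and wider. The part of width in the overall difference was not tested.

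Liver-only promoters had more active enhancers of their own liver around them than shared promoters did. Enhancers were called in each animal as its H3K27ac peaks that overlapped its H3K4me1 peaks and no liver H3K4me3 region, and those within 50 kb, middle to middle, were counted. Such peaks inside the promoter's own H3K27ac region, a mark that chose the members, were not left out of the counts. The counts tested below are therefore not independent of the rule, and the part of such peaks in the difference was not tested. Naked mole-rat members had a mean of 4.90 enhancers in NMR30, 5.61 in NMR31, 6.15 in NMR32, 6.14 in NMR34 and 7.42 in NMR35, and shared promoters had 3.68, 4.52, 5.11, 4.84 and 6.25. Damaraland mole-rat members had 8.24 in DMR1, 6.77 in DMR2, 5.63 in DMR3, 8.34 in DMR4 and 5.76 in DMR6, and shared promoters had 6.38, 5.54, 4.24, 6.35 and 4.24. The values of members and shared promoters overlapped between animals in both mole-rats, but within each animal the members were higher.

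Guinea pig members had 7.43 in GuineaPig7, 7.39 in GuineaPig8 and 6.51 in GuineaPig9, against 5.44, 4.99 and 4.76 at shared promoters. Mouse members had 4.95 in 85920, 4.83 in 85921, 4.67 in 85923 and 4.02 in 85924, against 3.32, 3.25, 3.21 and 3.11. In these species the lowest animal at members was above the highest at shared promoters. Members with no enhancer of the animal in reach made up 4.05% to 6.27% in guinea pigs, where shared promoters without one made up 15.6% to 18.3%. In naked mole-rats the shares were 15.3% to 19.1% and 20.5% to 30.8%.

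**Figure D3:**
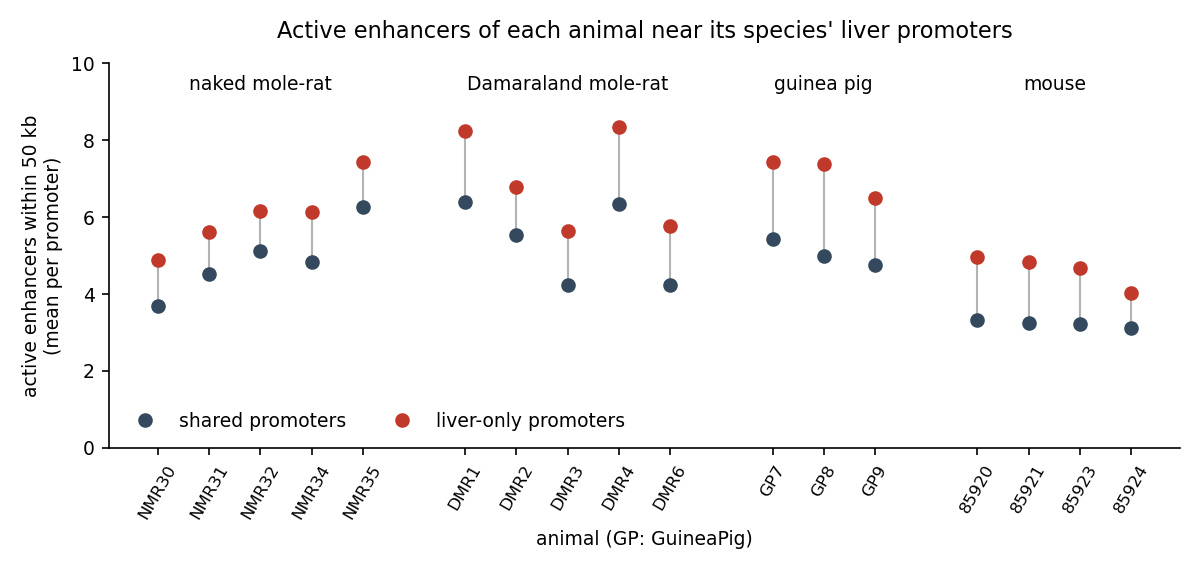
Mean number of active enhancers within 50 kb (vertical axis) of liver-only and of shared promoters, 1 pair of points per animal. The value at liver-only promoters is the higher of the pair in all 17 animals, from 4.02 in mouse 85924 to 8.34 in DMR4.

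The difference within animals was 1.16 ± 0.103 enhancers per promoter in naked mole-rats (SD, n = 5), 1.599 ± 0.322 in Damaraland mole-rats (n = 5), 2.04 ± 0.336 in guinea pigs (n = 3) and 1.40 ± 0.330 in the mouse (n = 4), and 1.55 ± 0.375 over the 4 species means. The members were higher in all 17 animals. All animals of a species were scored on the same sets of promoters, which their own peaks had helped to define. The SD and p therefore leave out uncertainty in the sets. The two-sided exact sign-flip permutation test gave p = 0.0625 in each mole-rat, 0.25 in guinea pigs, 0.125 in the mouse and 0.125 over the species, each the smallest its number of animals or species allows, so no test here could pass 0.05. Adjusted over the 5 tests they were 0.156, 0.156, 0.25, 0.156 and 0.156. Animals of the library series named do and vl, taken apart, gave 1.17 and 1.15 in naked mole-rats and 1.70 and 1.45 in Damaraland mole-rats. When every library was trimmed to the same number of peaks, the difference was 0.702 in naked mole-rats, 0.913 in Damaraland mole-rats, 1.48 in guinea pigs and 0.387 in the mouse. With mouse members kept only where no single heart library had a peak, it was 0.322, or 1.36 once the library of 6837 was left out. Promoters that this stricter rule took from the members counted as shared, so both sets changed. With enhancers called from at least 2 animals, in place of each animal's own, the guinea pig difference was 1.26.

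As a ratio, members had a log2 excess of 0.32 ± 0.06 in naked mole-rats (SD, n = 5), 0.38 ± 0.06 in Damaraland mole-rats (n = 5), 0.49 ± 0.07 in guinea pigs (n = 3) and 0.52 ± 0.10 in the mouse (n = 4). Exact permutation tests of the 6 species pairs gave raw p between 0.0179 and 0.771. The naked mole-rat differed from the guinea pig by -0.17 and from the mouse by -0.20 on the log2 scale, with adjusted p = 0.0714 for each by the same exact test, so no pair passed the threshold. Counts within 50 kb are cut at scaffold ends. Scaffolds reaching 1 Mb held 67.0% of liver promoters in naked mole-rats, 96.0% in guinea pigs and 100% in the mouse. For naked mole-rat promoters at least 50 kb from both scaffold ends the log2 excess was 0.355. The part of scaffold ends in the species differences was not tested.

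The excess of liver enhancers was near the promoter. In the first 10 kb, consensus liver enhancers numbered 1.495 per member and 0.965 per shared promoter in naked mole-rats, 1.43 and 0.942 in Damaraland mole-rats, 1.15 and 0.715 in guinea pigs and 1.10 and 0.609 in the mouse. Between 90 and 100 kb the values were 0.629 and 0.629, 0.738 and 0.709, 0.570 and 0.542, and 0.437 and 0.427. Heart active enhancers showed the reverse order: within 50 kb there were 0.757 per member and 1.43 per shared promoter in naked mole-rats, 1.29 and 2.85 in Damaraland mole-rats, 0.852 and 2.21 in guinea pigs and 1.18 and 2.72 in the mouse. Heart marks on the promoter itself chose the sets, so no test was made of the heart values.

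**Figure D4:**
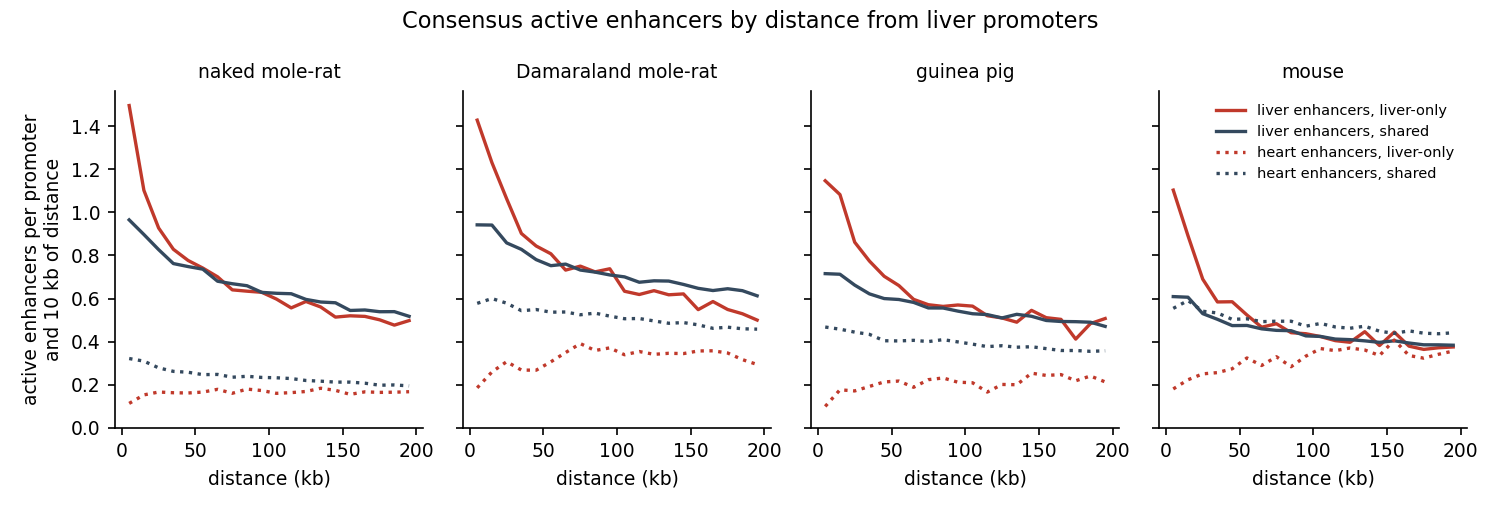
Consensus active enhancers per promoter and 10 kb of distance (vertical axis) against distance from the middle of the promoter (horizontal axis, kb, both sides together) in 4 species. Solid lines are liver enhancers and dotted lines heart enhancers. Liver enhancers near liver-only promoters start at 1.10 to 1.495 per promoter in the first bin and are 0.437 to 0.738 between 90 and 100 kb, close to the shared promoters.

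The enhancer excess was larger among promoters under 3 kb than among the widest. Under 1 kb of H3K27ac, members and shared promoters had 3.75 and 3.25 consensus liver enhancers within 50 kb in naked mole-rats, 3.65 and 3.29 in Damaraland mole-rats, 2.57 and 2.05 in guinea pigs and 2.35 and 1.65 in the mouse. Between 1 and 3 kb they had 5.97 and 4.59, 5.07 and 4.38, 3.97 and 2.88, and 3.72 and 2.54. At 3 kb and wider they had 7.33 and 7.97, 6.81 and 7.09, 4.99 and 4.87, and 4.65 and 4.78. The widest members were thus below shared promoters in 3 of 4 species and slightly above them in guinea pigs. These are single values per species with no replicate check.

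Factor libraries came from 2 naked mole-rats and 2 Damaraland mole-rats. Peaks of the liver factors lay at a larger share of liver-only promoters than of shared promoters in 15 of 16 libraries, and than of liver-only active enhancers in 16 of 16. A peak of CEBPA in NMR30 overlapped 1362 naked mole-rat members, 37.8% (95% Wilson interval 36.3 to 39.4), where 30.5% of all liver promoters had one, 29.1% of shared promoters and 26.8% of liver-only active enhancers. In NMR35 it was 1163 members, 32.3% (30.8 to 33.9), with 24% of all liver promoters, 22.5% of shared promoters and 21.4% of the enhancers. CEBPA in Damaraland mole-rats had the wider gap, with 512 members (34.9%, 32.5 to 37.4) in DMR1 against 14.7% of all liver promoters and 13.0% of shared promoters. In DMR4 it was at 895 members, 61.1% (58.5 to 63.5), against 33.2% of all and 30.8% of shared promoters. Liver-only active enhancers had it at 16.3% in DMR1 and 37.5% in DMR4, also above shared promoters. The levels of the Damaraland pair were far apart, so a share is read within a library.

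FOXA1, the forkhead factor, was at a larger share of members than of shared promoters in all 4 libraries. In NMR30 it was at 661 members, 18.4% (17.1 to 19.7), with 11.1% of all liver promoters and 9.78% of shared promoters. In NMR35 it was at 857 members, 23.8% (22.4 to 25.2), with 12.2% of all and 10.0% of shared promoters. DMR1 and DMR4 had FOXA1 at 409 and 363 members, 27.9% (25.7 to 30.3) and 24.8% (22.6 to 27.03), where 9.24% and 9.83% of all liver promoters and 7.63% and 8.54% of shared promoters had a peak. The log2 ratio to shared promoters, 1.87 in DMR1 and 1.54 in DMR4, was the highest and second highest of the 16 libraries. Liver-only active enhancers had FOXA1 at 14.6% in NMR35, 12.5% in DMR1 and 9.47% in DMR4, also above shared promoters. In NMR30 they were below shared promoters, at 8.20%.

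HNF4A, the receptor that keeps the hepatocyte state, was at 334 members in NMR30, 9.28% (8.38 to 10.3), with 6.34% of all and 5.81% of shared promoters. In NMR35 it was at 950 members, 26.4% (24.98 to 27.9), with 20.3% of all and 19.2% of shared promoters. In DMR4 it was at 788 members, 53.8% (51.2 to 56.3), with 34.4% of all and 32.7% of shared promoters. All 3 libraries put it at liver-only active enhancers far less often than at members, at 2.21%, 8.998% and 20.1%. HNF6, profiled in DMR1 alone, was at 381 members, 26.0% (23.8 to 28.3), with 11.9% of all and 10.7% of shared promoters. Liver-only active enhancers had HNF6 at 12.5%.

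RXRA, the common partner of nuclear receptors, gave the exception. In NMR35 it was at 1173 members, 32.6% (31.1 to 34.1), and at 35.3% of shared promoters, with 34.9% of all liver promoters. In NMR30 it was at 669 members, 18.6% (17.4 to 19.9), with 15.6% of all and 15.1% of shared promoters. In Damaraland mole-rats it was at 653 members of DMR1, 44.5% (42.0 to 47.1), with 20.9% of all and 18.9% of shared promoters. In DMR4 it was at 1013 members, 69.1% (66.7 to 71.4), with 48.3% of all and 46.5% of shared promoters. Of the NMR35 members apart from shared promoters 35.5% had RXRA, level with shared promoters. Liver-only active enhancers were below shared promoters for RXRA, at 6.77% in NMR30, 12.3% in NMR35, 15.3% in DMR1 and 33.9% in DMR4.

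**Figure D5:**
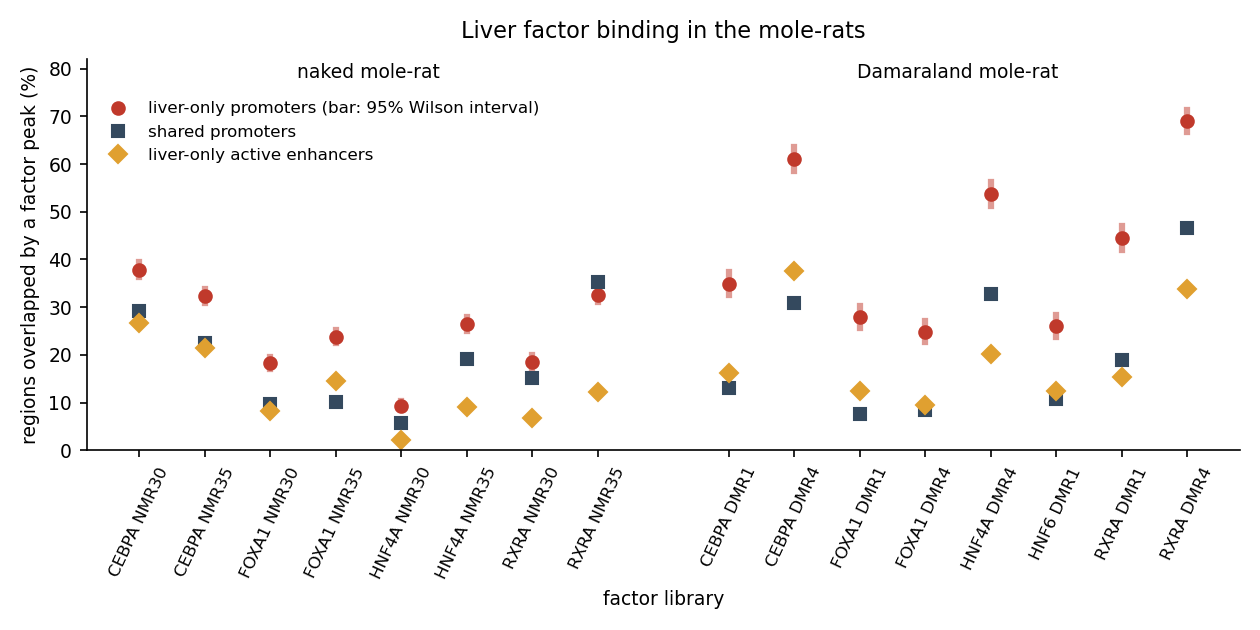
Share of regions overlapped by a factor peak (vertical axis, percent) in each of 16 liver factor libraries, for liver-only promoters with their 95% Wilson interval, shared promoters and liver-only active enhancers. Liver-only promoters are the highest of the 3 in every library except RXRA of NMR35, where they are at 32.6% and shared promoters at 35.3%.

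Averaged over the factors of an animal, the log2 ratio of the shares bound, members over shared promoters, was 0.57 in NMR30, 0.53 in NMR35, 1.45 in DMR1 and 0.95 in DMR4, a mean of 0.88 ± 0.43 (SD, n = 4). It was above 0 in 4 of 4 animals, and the two-sided exact sign-flip permutation test gave p = 0.125, the smallest that 4 animals allow. With 2 animals per species scored on the same members, this SD mixes species and animals. The factors averaged also differed between animals. For CEBPA, FOXA1 and RXRA alone, a choice made after seeing the data, the ratios were 0.53, 0.55, 1.51 and 1.03 in the same order. Against liver-only active enhancers the ratios were 1.30, 1.06, 1.22 and 1.13, a mean of 1.18 ± 0.10 (n = 4), again above 0 in 4 of 4 animals with exact permutation p = 0.125. The second comparison was smaller under other rules: it was 0.66 when 1 base of overlap counted, 0.45 when a factor summit had to lie within 250 bases of the middle of the region, and 0.29 among regions of 1 to 3 kb, a restriction chosen after seeing the data. Among those regions the ratio was -0.01 in DMR1 and members were higher in 11 of 16 libraries. Against shared promoters the last 2 of these restrictions gave 0.59 and 0.72, with 15 of 16 libraries higher. Other widths differed. Under 1 kb, any factor was at 31.7% of members and 34.7% of shared promoters in naked mole-rats. In Damaraland mole-rats it was at 42.0% and 33.8%. At 3 kb and wider the shares were close, 97.9% and 97.4% in naked mole-rats and 99.3% and 97.6% in Damaraland mole-rats. The part of width in the overall binding ratio was not tested.

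Members differed in how many factors they carried. With both animals of a species pooled, 1437 naked mole-rat members (39.9%) had no factor peak and 391 (10.9%) had all 4 factors, where 43.6% of shared promoters had none and 5.37% had all 4. For Damaraland mole-rats, where HNF4A came from DMR4 alone and HNF6 from DMR1 alone, 256 members (17.5%) had none and 169 (11.5%) had all 5 factors, against 37.2% and 2.70% of shared promoters. Within single animals, each with 4 factors, all 4 were at 124 members (3.45%) in NMR30, 300 (8.34%) in NMR35, 126 (8.59%) in DMR1 and 249 (17.0%) in DMR4. No factor was at 52.9%, 47.2%, 38.1% and 19.8% of members in the same order. The counts within single animals were made for members only, so they do not show what is particular to members. Median H3K27ac width climbed from 506 bases without a factor to 3750 bases with all 4 in naked mole-rats, and from 578.5 to 6106 bases in Damaraland mole-rats. Between the same ends, consensus active enhancers within 50 kb went from 4.12 to 7.02 and from 4.22 to 7.18 per member, and H3K4me1 from 47.7% to 86.2% and from 52.0% to 96.4% of members. Members without a factor peak were short and weakly acetylated, with a median H3K27ac percentile of 16.9 in naked mole-rats and 15.0 in Damaraland mole-rats. These values by number of factors are given for members only.

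All 8 factor libraries had a peak at 99 naked mole-rat members and at 79 Damaraland mole-rat members, of which the 2 with the highest mean H3K27ac fold in each species are described. The first in naked mole-rats was the region on JH170442.1 at 1021802 to 1034144. It covered 12343 bases, had H3K27ac folds of 52.1 in NMR30, 61.8 in NMR31, 141 in NMR32, 81.4 in NMR34 and 107 in NMR35, and 1 active enhancer within 50 kb. The region on JH165996.1 at 378703 to 385047 was also bound in all 8, with 12 enhancers in reach. In Damaraland mole-rats the regions on KN121628.1 at 31599 to 36095 and on KN123813.1 at 2030466 to 2034090 were bound in all 8 libraries, with mean H3K27ac folds of 64.2 ± 26.8 and 61.3 ± 13.4 (n = 5). These 4 regions had from 1 to 12 enhancers nearby. Binding in all 8 libraries was not counted for shared promoters, so the numbers of such members are a description.

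Binding was in part repeated in the second animal. Of the naked mole-rat members bound by CEBPA, 961 were bound in both animals, 70.6% of those in NMR30 and 82.6% of those in NMR35. For HNF4A 284 were bound in both, 85.0% of those in NMR30 and 29.9% of those in NMR35, whose list held 66444 peaks to 47577 in NMR30. In Damaraland mole-rats 636 members were bound by RXRA in both animals, 97.4% of those in DMR1 and 62.8% of those in DMR4. For FOXA1 253 members were bound in both Damaraland mole-rats, 61.9% of those in DMR1 and 69.7% of those in DMR4. In naked mole-rats 514 were bound in both, 77.8% of those in NMR30 and 59.98% of those in NMR35, whose list held fewer peaks (43457 to 51630) but bound more members. The remaining pairs shared 549 members for RXRA in naked mole-rats, 82.1% and 46.8% of each animal's, and 491 for CEBPA in Damaraland mole-rats, 95.9% and 54.9%. Repeated binding was not counted for shared promoters, so these shares are not shown to be particular to members.

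Factor peaks at liver-only promoters ranked higher than those at shared promoters. The fold of the highest factor peak on a bound region was ranked among all peaks of its library. The median percentile was higher at bound members than at bound shared promoters in 16 of 16 libraries, by 9.36 ± 4.06 points averaged over 4 animals (SD, n = 4; exact sign-flip permutation p = 0.125, the smallest possible). Against bound liver-only active enhancers it was higher in 13 of 16 libraries, by 5.29 ± 1.85 points (n = 4, exact permutation p = 0.125). A wider region can hold more peaks, and the median H3K27ac region of members was wider than that of both other sets. Among regions of 1 to 3 kb, a restriction chosen after seeing the data, the difference to shared promoters was 9.21 ± 4.31 points, with members higher in 14 of 16 libraries (n = 4, exact permutation p = 0.125). To enhancers it was 1.03 ± 3.19 points, higher in 2 of 4 animals and 9 of 16 libraries (exact permutation p = 0.63). Over regions of any width, the widest gap to shared promoters was RXRA in DMR4, with percentiles of 78.8 at members and 56.9 at shared promoters. HNF4A in NMR30 gave the narrowest, 87.9 and 86.0.

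TBX5, a T-box factor of heart muscle, was profiled in the heart of the Damaraland mole-rat DMR6 in 1 library. Its peaks overlapped 211 liver-only promoters, 14.4% (95% Wilson interval 12.7 to 16.3), where 13.6% of all liver promoters had one. Shared promoters had one at 13.5% (13.0 to 14.0) and liver-only active enhancers at 5.54% (5.28 to 5.81). The share at members was near that of all liver promoters. This library has no replicate.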

How the data were processed

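Peak lists from ChIP-seq of liver and heart of 4 rodents were used as the authors deposited them, 1 list per library. The deposited score of each peak is 10 times its −log10 q. The deposited fold is a linear ratio over background. Significance was deposited by the authors as −log10 of a p-value and, adjusted, as −log10 of a q-value, both from the peak caller, MACS2 per the submitters' processing notes. The last column that the authors deposited gives the distance of the summit from the peak's start. The aligner is not given in the sources used here. Builds, per the file names, were GRCm38, HetGla_1.0, DMR_v1.0 and Cavpor3.0. No genome or annotation of these builds was used here, so no sequence is shown, no gene is named, and planned lists of liver and cell type genes were not analysed here. Positions count from 1. Read depth is unknown.

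Regions, overlaps, counts within 50 kb and exact permutation tests were computed in SciPy 1.17.1 and NumPy 2.4.6 with tables read by pandas 2.3.3 under Python 3.11.15, drawn in Matplotlib 3.10.9, and the rule was tested on simulated data. Animals paired the sets compared, since every value of a set came from the same animal. Regions named are, per species, the 4 members with the highest mean H3K27ac fold among those with a peak in every liver library, the 2 with the most enhancers and, in mole-rats, the 2 bound in most factor libraries, with ties in either number settled by the higher mean H3K27ac fold. Members, lists and tests were chosen with earlier results of these data known. Over 169 pairs of libraries of 1 group the highest Jaccard index was 0.831, so none was a copy of another in its group. Pairs across tissues, marks or species are not covered by this check. Where nothing names separate handling, p-values measure the spread between these animals. Inputs, chromosome conformation samples and 1 sample whose title and organism disagree were not analysed here. Alternatives were other overlaps, thresholds, replicate minimums, windows and left-out libraries.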

Additional observations from a re-analysis of the deposited data

Results flagged for a closer look

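In groups of 4 to 10 libraries, a highest or lowest library was picked out when its gap to the next exceeded Dixon's 95% critical value for the range of the group. This applied to 5 of 37 groups, where chance picks about 1 in 20 groups. The mouse heart H3K4me3 library of 6837 had a peak at 72.3% of liver-only promoters, the other 5 at 0.0945% to 2.65%. The mouse heart H3K4me1 library of 33017 had one at 12.7%, the other 4 at 0.378% to 3.78%. In mouse liver the median H3K4me1 fold at members was 12.2 in 85924 and 6.64 to 6.86 in the others, and the median H3K27ac width was 1814 bases in 85920 and 1978 to 2009 in the others. In Damaraland mole-rat liver the median H3K27ac width was 2181.5 bases in DMR2 and 1498 to 1638 in the others.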

How the results depend on the processing

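None of the listed alternatives reversed a direction averaged over animals, but the paired tests cannot pass 0.05 in these designs, so their side of the threshold says nothing about stability. The width bands of H3K4me1 and of enhancers were not among these alternatives, and some had the reverse order. Enhancer values at 3 kb and wider were lower at members in both mole-rats and the mouse. H3K4me1 under 1 kb was lower at members in every species. Sizes did move: the mouse enhancer difference of 1.40 was as low as 0.322, the log2 binding ratio to enhancers of 1.18 as low as 0.29 and the peak rank difference to enhancers of 5.29 was 1.03 among regions of 1 to 3 kb. When no single heart library could have a peak, the number of members was 2280 in naked mole-rats, 935 in Damaraland mole-rats and 213 in the mouse, and the median H3K27ac width was 3977 bases in guinea pigs and 868 in the mouse, with a mouse fold of 6.86. With 6837 also left out, chosen after seeing the data, the mouse had 786 members, a width of 2483.5 bases and a fold of 19.6. Peaks with a −log10 q of at least 4 gave a guinea pig width of 4327 bases and a mouse fold of 20.5. With no replicate block, that is without pairing the sets within animals, the mouse enhancer difference was the same 1.40 with exact permutation p = 0.0286, and no other call changed. Leaving out each library in turn gave 3143 to 4138 members in naked mole-rats, 1448 to 1576 in Damaraland mole-rats, 616 to 819 in guinea pigs and 897 to 1149 in the mouse. Enhancer differences were then 0.875 to 1.45, 1.47 to 1.83, 1.86 to 2.20 and 1.32 to 1.62, and 1.48 to 1.62 over species. Log2 binding ratios were 0.80 to 0.93 against shared promoters and 1.11 to 1.24 against enhancers. The Damaraland mole-rat has 2 liver H3K4me3 libraries, so leaving out either gives no value. The cause of these shifts was not tested, and unknown read depth limits what absence of a peak shows.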

Other observations

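Some liver-only promoters lay near each other. Another member was within 50 kb of 48.4% of members in naked mole-rats, 33.5% in Damaraland mole-rats, 25.9% in guinea pigs and 34.6% in the mouse. Runs of 4 or more members, each within 50 kb of the next, numbered 100, 22, 3 and 7. The longest run in the mouse held 9 members on chromosome 12 from 103734347 to 104082774 (GRCm38). In naked mole-rats it held 15 members on JH173384.1 from 67998 to 140091, in Damaraland mole-rats 7 on KN123755.1 from 4233668 to 4351116, and in guinea pigs 5 on DS562969.1 from 721527 to 854546. Across mouse autosomes the share of liver promoters found only in liver ranged from 4.32% on chromosome 11 (52 of 1205) to 10.4% on chromosome 10 (79 of 759). No test was made of these values. Nearness was not counted for shared promoters and depends on the number of members, so it is not shown to be particular to members.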
